A study of Homo sapiens with 6 samples.

Results

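The adenylyl cyclase family consists of the membrane enzymes that make cyclic AMP (cAMP) from ATP. Its genes were taken as the rows of the count table named ADCY1 to ADCY9, which are 9 of the 57341 named genes, and 7 of these 9 were among the 16710 genes with enough counts to be tested. The study sequenced the RNA of H295R cells, a human cell line from an adrenocortical carcinoma, in 3 libraries of the parental cells, which were not sorted, and 3 libraries of H295R-PM-Ptc+ cells. The latter were sorted from H295R cells by flow cytometry with an antibody to Ptch1, the Hedgehog receptor, at the plasma membrane, and were then grown up. Both populations were kept in the same medium and received no treatment, and all 6 libraries come from 1 cell line. How many sorts lie behind the 3 libraries of H295R-PM-Ptc+ cells, and whether replicates were separate cultures, is not given in the sources used here, so the p-values measure the spread between these libraries, which may be technical.

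Adenylyl cyclases sit beneath G protein coupled receptors. The stimulatory G alpha subunit switches them on, inhibitory subunits and calcium restrain some of them, and the cAMP they make activates protein kinase A and the exchange factors called Epac until phosphodiesterases break it down. In the adrenal cortex this chain carries the signal of the pituitary hormone ACTH from its receptor to the steroid making enzymes, and protein kinase A also restrains the GLI factors, through which the Hedgehog pathway acts on genes. The isoforms differ in what regulates them: ADCY1, ADCY3 and ADCY8 respond to calcium and calmodulin, ADCY2, ADCY4 and ADCY7 are stimulated by the G beta gamma dimer together with the stimulatory subunit, ADCY5 and ADCY6 are inhibited by calcium and by inhibitory G alpha subunits, and ADCY9 stands apart by its insensitivity to the plant compound forskolin.

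The groups are named here as the libraries are labelled, because PTCH1, which encodes the receptor used for the sort, went against the labels. Its counts were 441, 559 and 579 in the libraries labelled H295R and 248, 326 and 319 in those labelled H295R-PM-Ptc+. In CPM, the counts per 1000000 of the TMM-scaled library size, this was 21.3 ± 2.56 against 12.2 ± 2.19 (SD, n = 3 each), a log2 difference of −0.81 with an adjusted p of 0.0207. RNA and surface protein need not move together, but the normalised columns published with the study also match the deposited columns under exchanged group names. The directions that the study gives are thus the reverse of those under the deposited labels. Which group is the sorted one cannot be settled from the counts, so every direction given for the adenylyl cyclases holds for the labels only. With the names exchanged the sizes stay and each direction turns, so that ADCY2 would be higher in the sorted cells. The library totals ranged from 23264403 to 25813247 counts, and replicate 1 of each group deviated together from the others. The 7 adrenocortical markers were all present, with summed levels of 876 to 1155 CPM in the H295R group and 955 to 1213 CPM in the other, and 1 of them passed the test, the steroid 21-hydroxylase CYP21A2 (log2 difference 0.88, adjusted p = 0.00670). With the replicate number as a block STAR, which brings cholesterol into mitochondria (0.41, adjusted p = 3.91e-06), and the side chain cleavage enzyme CYP11A1 (−0.25, adjusted p = 0.00100) passed as well. Of 6 chromaffin and neuronal markers, TH, DBH, PNMT and RBFOX3 held at most 3 counts in any library. Fibroblast markers summed to 7.60 to 8.90 CPM in the H295R group and at most 10.7 CPM in the other, endothelial markers to at most 0.274 CPM and immune markers to at most 1.29 CPM.

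The family was made up mainly of ADCY6, ADCY3 and ADCY9, and 1 of its 7 tested genes passed an adjusted p of 0.05. This gene was ADCY2, at a level 7.57-fold lower under the H295R-PM-Ptc+ label. Among all tested genes, 3.73% passed in either direction and 1.32% passed as lower in that group. The groups did not overlap for ADCY1, ADCY2, ADCY3 and ADCY6, where 23.5% of all tested genes did not overlap. When the replicate number was added as a block, which raised the share of all tested genes that passed to 22.5%, ADCY3 and ADCY7 passed as well, both higher. ADCY2 was thus the tested member on which the groups differed most, and ADCY7, of the same regulatory class, pointed the other way. The median log2 difference over all tested genes was 0.00.

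**Figure D1:**
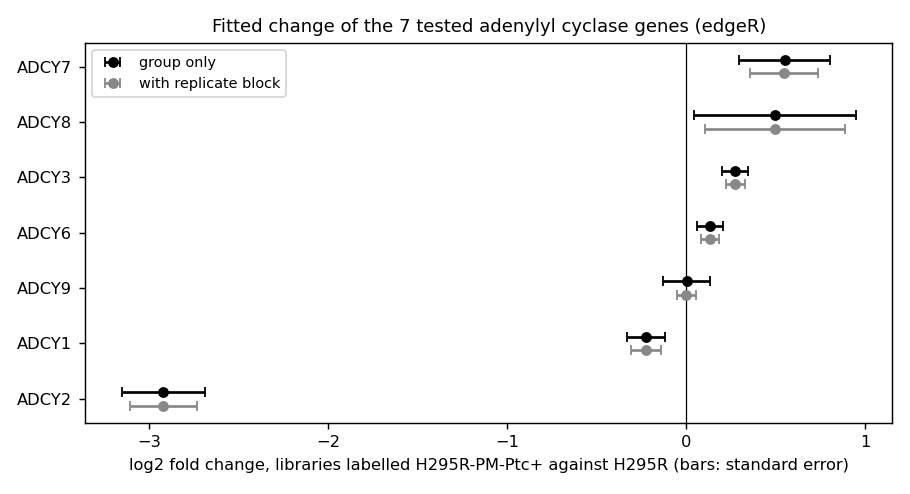
Fitted log2 difference of the 7 tested adenylyl cyclase genes, libraries labelled H295R-PM-Ptc+ against H295R (horizontal axis), with bars of 1 standard error, from the fit on group alone (black) and with the replicate block (grey). ADCY2 lies at −2.92, away from the other 6 genes, which lie between −0.22 and 0.55.

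The promoter windows of the 3 genes that passed with or without the block are shown because they are where the control of these genes could be looked up. They run from 250 bases before to 50 bases after the start given by RefSeq (GRCh38.p14), 5′ to 3′ on the strand of the gene, in lower case, with matches to searched motifs in capitals. ADCY2 lies at chr5:7395888-7396187 on the plus strand, ADCY3 at chr2:24919536-24919835 on the minus strand, and ADCY7 at chr16:50266301-50266600 on the plus strand. RefSeq gives ADCY3 a second window at chr2:24920188-24920487, and the one shown has its start inside the gene as the count table places it.
ADCY2: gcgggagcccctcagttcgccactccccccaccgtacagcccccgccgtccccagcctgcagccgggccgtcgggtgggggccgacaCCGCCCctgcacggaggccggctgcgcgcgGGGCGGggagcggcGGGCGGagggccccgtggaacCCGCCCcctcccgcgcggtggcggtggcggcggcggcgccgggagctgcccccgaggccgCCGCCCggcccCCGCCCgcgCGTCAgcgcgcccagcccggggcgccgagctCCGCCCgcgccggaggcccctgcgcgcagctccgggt
ADCY3: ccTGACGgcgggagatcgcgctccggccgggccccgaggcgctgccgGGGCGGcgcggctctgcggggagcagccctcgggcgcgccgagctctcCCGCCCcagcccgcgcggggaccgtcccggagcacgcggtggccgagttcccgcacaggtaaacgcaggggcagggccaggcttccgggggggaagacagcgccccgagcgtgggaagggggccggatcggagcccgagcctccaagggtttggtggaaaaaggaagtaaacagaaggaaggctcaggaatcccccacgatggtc
ADCY7: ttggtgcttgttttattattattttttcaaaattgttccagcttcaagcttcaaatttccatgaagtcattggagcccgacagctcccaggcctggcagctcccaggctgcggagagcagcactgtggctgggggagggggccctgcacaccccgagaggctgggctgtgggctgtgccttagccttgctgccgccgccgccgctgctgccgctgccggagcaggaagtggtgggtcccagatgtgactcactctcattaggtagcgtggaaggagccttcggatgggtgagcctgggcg
Searched on both strands were TGACGTCA, the palindromic cAMP response element, its core TGACG, the GLI site GACCACCCA, the SF-1 site CAAGGTCA of steroidogenic genes, and the GC box GGGCGG. The ADCY2 window held 7 GC boxes and 1 core at position −18 and was 85.3% G or C, whereas the median of all 35116 RefSeq promoter windows was 58.7%. The ADCY3 window held 2 GC boxes and 1 core and was 73.3% G or C, while the other ADCY3 window held 9 GC boxes and no core and was 84.7% G or C. The ADCY7 window held no motif and was 59.7% G or C. It lies inside the gene as the count table places it, and the bases before the start in the count table were not searched. Of all promoter windows, 45% held a GC box, 24.6% the core, 1.85% the full response element, 0.236% the GLI letters and 1.28% the SF-1 letters. None of the 9 windows of the 6 members that RefSeq matched (ADCY1, ADCY2, ADCY3, ADCY4, ADCY5 and ADCY7) held the full response element, the GLI letters or the SF-1 letters. These matches describe the letters only.

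The cyclases stimulated by G beta gamma were the class with the largest relative difference. ADCY2, which lies at chr5:7396208-7830081 on the plus strand, had 162, 111 and 124 counts in the libraries labelled H295R and 19, 16 and 17 in those labelled H295R-PM-Ptc+. In CPM this was 6.78, 4.37 and 5.02 CPM against 0.743, 0.644 and 0.734 CPM. All 3 values of the first group lay above all 3 of the second, and the second group was tight. The means were 5.39 ± 1.25 and 0.707 ± 0.0552 CPM (SD, n = 3 each), which gave a log2 difference of −2.92 (SE 0.232, adjusted p = 3.93e-04). Within the pairs of equal replicate number the log2 ratio of CPM was −3.19, −2.76 and −2.77, so each pair held the difference, and with the block the adjusted p was 2.76e-08. Of the 220 genes that passed as lower, ADCY2 ranked 6 by the size of the log2 difference, and it ranked 21 among all tested genes by p. An exact two-sided permutation test of the CPM alone gave p = 0.1, the smallest that 3 libraries against 3 allow, over 20 assignments. In bulk RNA, fewer cells that express ADCY2 and less ADCY2 RNA per cell cannot be told apart.

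Beside this difference, the chromaffin and neuronal markers summed to 21.5 to 22.7 CPM in the H295R group and to at most 16.7 CPM in the other, mostly from SNAP25, a protein of vesicle fusion, which was at 21.3 ± 0.605 against 14.5 ± 0.573 CPM (SD, n = 3 each, log2 difference −0.55, adjusted p = 0.00852). CHGA, the granule protein chromogranin A and the other tested gene of this list, pointed the other way, at 0.783 against 1.16 CPM, and did not pass (log2 difference 0.57, adjusted p = 0.305). Their part in the ADCY2 result was not tested. The gene RP11-711G10.1, which overlaps ADCY2 on the opposite strand, held 4 counts over all libraries. Without replicate 1 of both groups the log2 difference of ADCY2 was −2.76, with an adjusted p of 3.97e-05.

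ADCY7, at chr16:50246137-50318135 on the plus strand, had 40, 46 and 54 counts in the H295R group and 46, 84 and 73 in the other. This was 1.67, 1.81 and 2.18 CPM against 1.80, 3.38 and 3.15 CPM. Replicate 1 of the second group lay among the H295R libraries and the other two lay above them. The log2 difference was 0.55 (SE 0.254, adjusted p = 0.313), and with the block it passed, with an SE of 0.188 and an adjusted p of 0.0471. The pairs gave log2 ratios of 0.10, 0.90 and 0.53, so the pair of replicate 1 held little of the difference. ADCY7 shares exon bases with BRD7 on the opposite strand, a chromatin reader gene whose counts were level between the groups (log2 difference 0.03, adjusted p = 0.880). ADCY4, the remaining member of the class, at chr14:24318349-24335093 on the minus strand, had 0 counts in all 6 libraries, which allows up to 3 counts in a library. It shares exon bases on the same strand with RP11-934B9.3, also at 0 counts, and reads in the shared bases may be counted for neither gene.

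Added up, the class stimulated by G beta gamma came to 7.28 ± 1.14 CPM in the H295R group and 3.48 ± 0.818 CPM in the other (SD, n = 3 each). The groups did not overlap, and the exact permutation p was 0.1. In the H295R group ADCY2 and ADCY7 stood at like levels per length, 0.307 ± 0.0711 and 0.219 ± 0.0306 CPM per kilobase, with overlapping ranges, although ADCY2 was the higher within each of the 3 libraries. In the other group ADCY2 was at 0.0403 ± 0.00315 and ADCY7 at 0.322 ± 0.0990 CPM per kilobase, with ADCY7 above ADCY2 in every library.

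**Figure D2:**
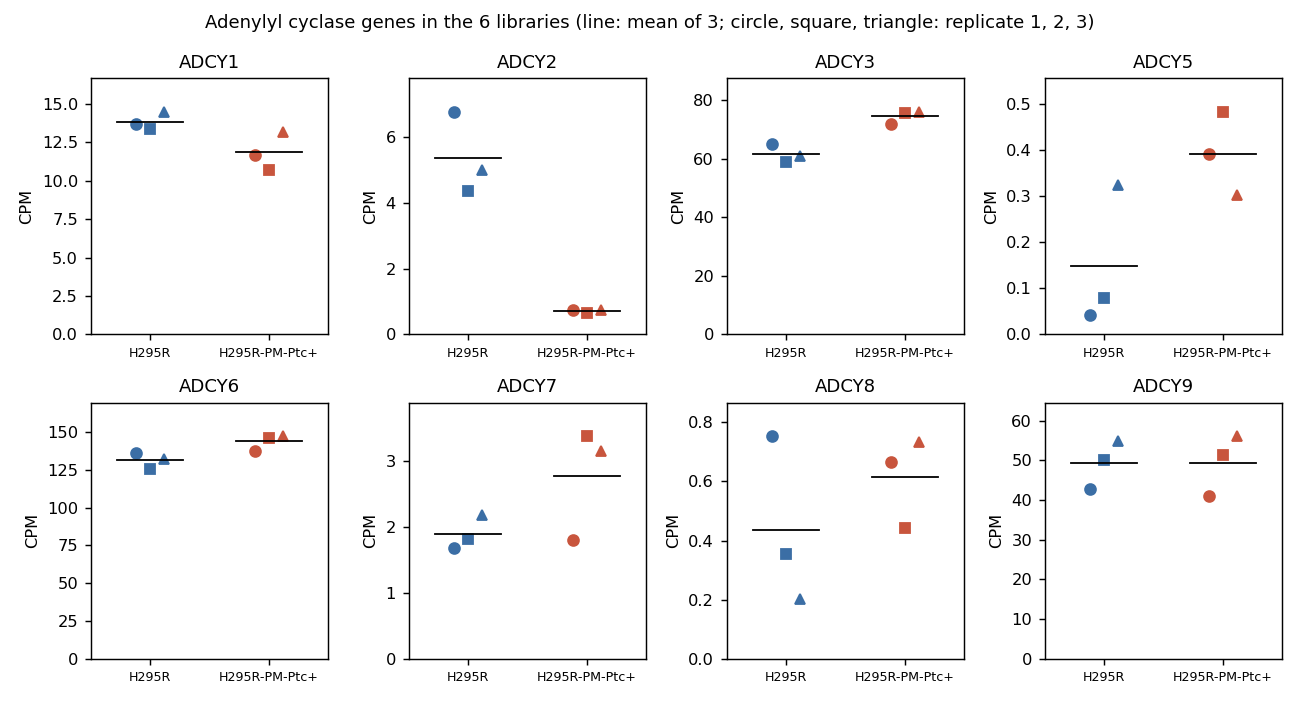
Level of each adenylyl cyclase gene with a count, in CPM on a linear axis that starts at 0, in the 3 libraries of each labelled group, with the mean as a line and a circle, square and triangle for replicates 1, 2 and 3. ADCY2 falls from between 4.37 and 6.78 CPM to below 0.75 CPM, whereas the libraries of ADCY9 overlap.

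The calcium and calmodulin stimulated class is carried by ADCY3 and ADCY1 in these cells. ADCY3, known from olfactory neurons and primary cilia, lies at chr2:24819169-24919839 on the minus strand and had 1551, 1496 and 1509 counts in the H295R group and 1838, 1878 and 1759 in the other. In CPM this was 64.9, 58.9 and 61.0 CPM against 71.9, 75.5 and 76.0 CPM. Every library labelled H295R-PM-Ptc+ was above every library labelled H295R. The log2 difference of 0.27 (SE 0.0726) did not pass, with an adjusted p of 0.0804, and passed with the block (SE 0.0532, adjusted p = 0.00145). The pairs gave log2 ratios of 0.15, 0.36 and 0.32, all of 1 sign. ADCY3 shares exon bases on the opposite strand with CENPO, a centromere protein gene (log2 difference 0.06, adjusted p = 0.814), and with RP11-443B20.1 (0.22, adjusted p = 0.482). Neither neighbour passed. The methods of the study count reads by strand, with a setting other than the usual one for such a kit, and its effect on genes that overlap on opposite strands was not tested.

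ADCY1, a calmodulin dependent cyclase known best from neurons, lies at chr7:45574140-45723116 on the plus strand and had 327, 340 and 358 counts in the H295R group and 299, 266 and 305 in the other. This was 13.7, 13.4 and 14.5 CPM against 11.7, 10.7 and 13.2 CPM. The groups did not overlap, but the gap between them was narrow. The log2 difference was −0.22 (SE 0.107, adjusted p = 0.330), and the adjusted p was 0.0631 with the block. ADCY8, at chr8:130780301-131042426 on the minus strand, had 18, 9 and 5 counts against 17, 11 and 17, so its groups overlapped, and a log2 difference of 0.49 (SE 0.452, adjusted p = 0.651) was within the spread of these few counts. The class as a whole summed to 75.9 ± 3.36 CPM against 86.9 ± 2.82 CPM (SD, n = 3 each), without overlap and with an exact permutation p of 0.1.

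ADCY6, of the class inhibited by calcium and inhibitory G alpha subunits, was the most abundant cyclase in every library. It lies at chr12:48766194-48789037 on the minus strand and had 3257, 3182 and 3263 counts in the H295R group and 3519, 3638 and 3408 in the other. In CPM this was 136, 125 and 132 CPM against 138, 146 and 147 CPM. The groups did not overlap, although replicate 1 of the second group came close to replicate 1 of the first. The log2 difference was 0.13 (SE 0.0729, adjusted p = 0.411), and the adjusted p was 0.0610 with the block. The pairs gave log2 ratios of 0.01, 0.22 and 0.16. ADCY5, its close relative, at chr3:123282296-123449758 on the minus strand, had 1, 2 and 8 counts against 10, 12 and 7 and was too low to be tested. ADCY9, at chr16:3953387-4116185 on the minus strand, was at 49.3 ± 6.10 CPM in the H295R group and 49.4 ± 7.74 CPM in the other (SD, n = 3 each), with a log2 difference of 0.00 (SE 0.131, adjusted p = 0.994). The counts of 1024, 1272 and 1359 against 1046, 1275 and 1298 covered the same range.

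Replicate 1 bore on several of these values. Without replicate 1 of both groups, a comparison chosen after seeing the data in which 12% of all tested genes passed, ADCY2, ADCY3, ADCY6 and ADCY7 had an adjusted p below 0.05. The log2 differences of ADCY3, ADCY6 and ADCY7 were then 0.34 (adjusted p = 0.00449), 0.19 (adjusted p = 0.0410) and 0.71 (adjusted p = 0.0403). Without replicate 1 of the H295R group alone, ADCY3 passed with an adjusted p of 0.0496.

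Because read counts grow with transcript length, the levels of different cyclases were compared per kilobase of the exon length in the count table. In the H295R group the order was ADCY6 with 15.6 ± 0.662, ADCY3 with 10.2 ± 0.503, ADCY9 with 4.76 ± 0.589 and ADCY1 with 1.02 ± 0.0419 CPM per kilobase (SD, n = 3), followed by ADCY2, ADCY7, ADCY8 with 0.0733 ± 0.0477, ADCY5 with 0.0167 ± 0.0173 and ADCY4 at 0. Neighbours in this order were separate in all 3 libraries except ADCY2 and ADCY7, and ADCY8 and ADCY5, whose ranges overlapped. Under the H295R-PM-Ptc+ label the first 4 kept their places, with 17.1 ± 0.627, 12.3 ± 0.369, 4.77 ± 0.748 and 0.876 ± 0.0921 CPM per kilobase. ADCY2 moved from rank 5 to rank 8, behind ADCY7, ADCY8 with 0.103 ± 0.0256 and ADCY5 with 0.0442 ± 0.0102, and its range overlapped that of ADCY5. The exon lengths join all annotated transcripts of a gene, 17538 bases for ADCY2 against 6058 for ADCY3, so a gene whose long transcripts are not used in these cells would be set too low.

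The share of each cyclase in the summed family CPM of a library restates these levels as a composition. ADCY6 gave 49.7% ± 1.17 in the H295R group and 50.7% ± 1.14 in the other, ADCY3 23.4% ± 0.876 and 26.3% ± 0.755, and ADCY9 18.7% ± 2.32 and 17.3% ± 1.77 (SD, n = 3 each). ADCY1 gave 5.25% ± 0.118 and 4.18% ± 0.411. The share of ADCY2 was 2.54% (95% exact Clopper-Pearson interval 2.17 to 2.96), 1.72% (1.42 to 2.07) and 1.86% (1.55 to 2.21) in the H295R libraries. In the others it was 0.280% (0.168 to 0.436), 0.223% (0.127 to 0.362) and 0.247% (0.144 to 0.395). No interval of the first group reached any of the second, and the intervals cover counting error only. The mean share of ADCY2 was thus 1.79 percentage points lower in the second group, or 0.84 points on length-scaled values, and that of ADCY3 2.90 points higher. ADCY7, ADCY8 and ADCY5 together with ADCY2 made up the rest, with mean shares of 0.716%, 0.165% and 0.0555% in the H295R group and 0.969%, 0.217% and 0.139% in the other. The exact permutation p was 0.1 for ADCY1, ADCY2 and ADCY3, whose shares did not overlap, and 0.267 when adjusted over the 8 genes compared. The other 5 had p from 0.2 to 0.6.

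**Figure D3:**
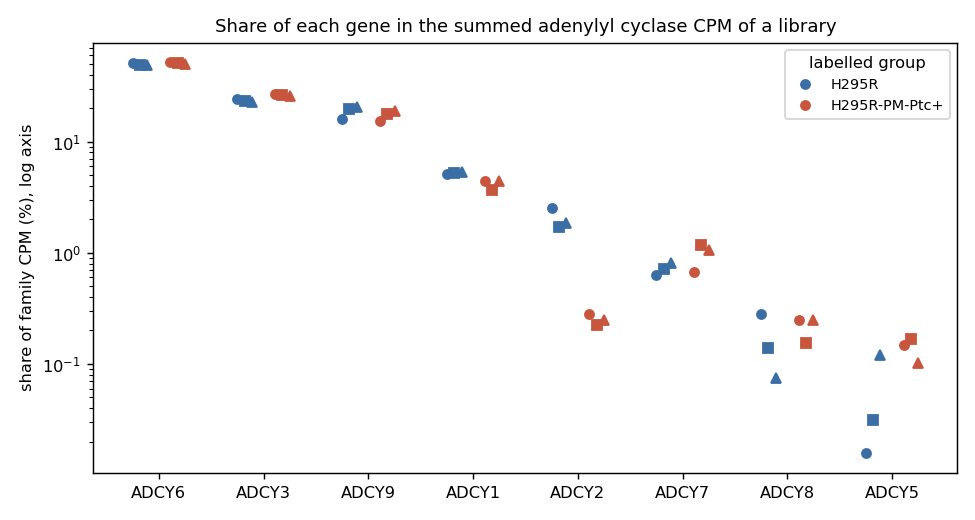
Share of each adenylyl cyclase gene in the summed family CPM, in percent on a log axis, for the 3 libraries of each labelled group (circle, square and triangle for replicates 1, 2 and 3). ADCY6 has a mean of 49.7% in the H295R group and 50.7% in the H295R-PM-Ptc+ group, and ADCY2 moves from a mean of 2.04% in the former to 0.250% in the latter.

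Summed in CPM, the family as a whole did not separate the groups. The summed level of all 9 genes was 267, 254 and 270 CPM in the libraries labelled H295R and 266, 289 and 297 CPM in those labelled H295R-PM-Ptc+. Replicate 1 of the second group lay among the H295R libraries, and the other two lay above them. The means were 264 ± 8.45 and 284 ± 16.3 CPM (SD, n = 3 each), with an exact permutation p of 0.3. Summed per kilobase, where the long ADCY2 counts for less and ADCY3 for more, the values were 32.2 ± 1.04 and 35.5 ± 1.85, the groups did not overlap and the exact permutation p was 0.1. Without ADCY2 the family summed to 258 ± 7.82 and 283 ± 16.3 CPM.

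ADCY2 differed from the genes around it. The 25 tested genes on either side, which span 473236 to 17354624 on chromosome 5, had a median log2 difference of 0.12. Of these 50, 10 were below 0, beside 49.8% of all tested genes, of which 3.73% passed. With edgeR 0 of the 50 passed (10 at an unadjusted p under 0.05, 1 with DESeq2 and 0 with limma-voom), and their differences ran from −0.34 to 1.23, so the difference of ADCY2 from their median was −3.04. For the other tested cyclases the median of the 50 neighbours lay between −0.05 and 0.07.

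**Figure D4:**
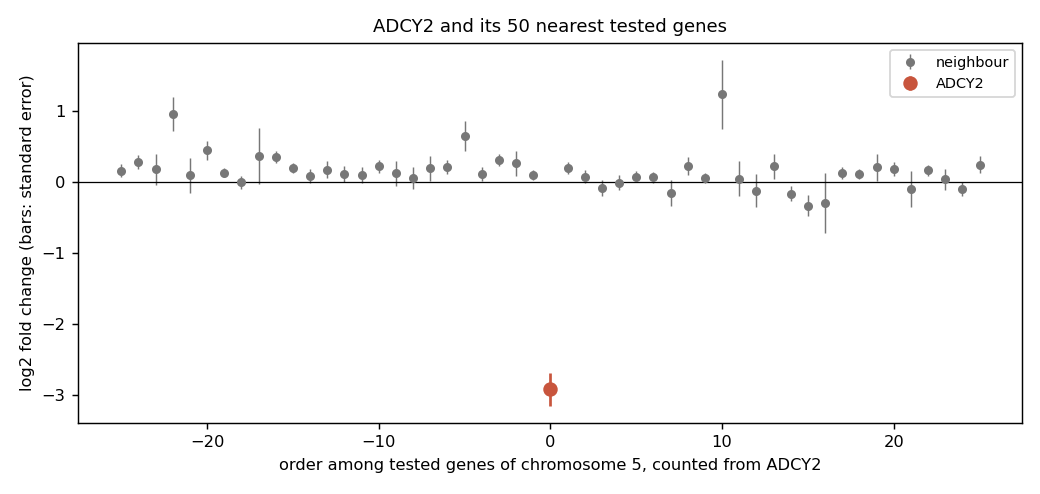
Fitted log2 difference with its standard error (bars) for ADCY2 and the 25 tested genes on either side of it, in the order of their start on chromosome 5 counted from ADCY2. ADCY2 stands at −2.92 among neighbours with a median of 0.12.

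The genes whose level followed that of ADCY2 most closely over the 6 libraries (Pearson r of log2 CPM with a pseudocount of 0.5) were S1PR3, a sphingosine-1-phosphate receptor, with r = 0.999, MRAS, a small GTPase of the RAS family, with 0.997, CLDND1, a membrane protein of the claudin family, with 0.997, SOD2, the mitochondrial superoxide dismutase, with 0.996, and VHL, which targets hypoxia inducible factors for breakdown, with 0.996. Their own differences were much smaller, from −0.48 for MRAS to −0.08 for SOD2, against −2.92 for ADCY2. S1PR3 and MRAS passed the test (adjusted p = 0.0101 and 0.00702), and CLDND1, SOD2 and VHL did not (adjusted p = 0.183, 0.596 and 0.0868). These values are a description over 6 libraries in 2 groups, which any gene that separates the groups will share in part, and 238 of the 16709 other tested genes had r over 0.95. Among the other cyclases r was 0.78 for ADCY1 and −0.89 for ADCY3.

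The rest of the cAMP pathway was followed with 13 lists of 146 genes, all in the table and 98 of them tested. The lists were chosen with earlier results of these data known, and hold genes that the study names as differing. Their shares are therefore a description and no test of the pathway. Of these 98, 10 passed, 6 with less RNA under the H295R-PM-Ptc+ label and 4 with more, which is 10.2% beside 3.73% of all tested genes. The groups did not overlap for 37 of the 98, beside 23.5% of all tested genes, and the median log2 difference of the 98 was 0.02. With the block 42 passed, 21 in each direction, beside 22.5% of all tested genes. All 10 that passed on group alone also passed with the block. The 10 include PTGER3, which reached the count filter through the libraries labelled H295R-PM-Ptc+ only.

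Upstream of the cyclases, GNAS, the stimulatory G alpha subunit, was at 1074 ± 35.2 CPM in the H295R group and 985 ± 5.79 CPM in the other (SD, n = 3 each). Its groups did not overlap, and its log2 difference of −0.12 passed with the block and not without it (adjusted p = 0.442, with the block 0.0485). GNAL, the olfactory form of this subunit, was lower, at 34.0 ± 1.28 against 26.4 ± 0.817 CPM (log2 difference −0.36, adjusted p = 0.0335). Of 6 tested inhibitory G alpha genes, GNAZ was lower, at 170 ± 13.1 against 122 ± 9.69 CPM (−0.48, adjusted p = 0.0235), and GNAT3, the taste receptor form gustducin, was higher. The counts of GNAT3 were 28, 45 and 51 against 152, 125 and 109, a log2 difference of 1.64 (SE 0.210, adjusted p = 0.00346). Of the 4 tested G beta genes 0 passed with edgeR, 2 had an unadjusted p under 0.05, and 2 passed with DESeq2 and 0 with limma-voom. With the block 1 was higher and 1 lower. Of 6 tested G gamma genes, GNG4 was lower, with 263, 306 and 318 counts against 189, 186 and 207 (−0.59, adjusted p = 0.0317), and with the block 3 were lower. Among the 14 tested direct regulators, which hold calmodulins, calcium dependent kinases and G protein chaperones, 0 passed with edgeR, DESeq2 or limma-voom, 2 had an unadjusted edgeR p under 0.05, and with the block 4 were higher. Of the 5 A-kinase anchoring proteins 0 passed with edgeR and limma-voom, 1 with DESeq2, 1 had an unadjusted p under 0.05, and with the block 2 were higher. Of the 7 tested receptors coupled to the stimulatory subunit 0 passed by any of the 3 tools on group alone or had an unadjusted edgeR p under 0.05. With the block 1 of them passed, VIPR1, a receptor for vasoactive intestinal peptide (log2 difference 0.43, adjusted p = 0.00239), which is named after its values were seen.

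MC2R, the ACTH receptor, was among those receptors and stood at 3.78 ± 0.451 CPM in the H295R group and 3.59 ± 0.565 CPM in the other (log2 difference −0.07, adjusted p = 0.891). Of 12 tested receptors coupled to inhibitory subunits, 3 passed, and with the block 3 were higher and 3 lower. PTGER3, a prostaglandin E2 receptor, had 1, 7 and 2 counts in the H295R group and 70, 32 and 35 in the other, a log2 difference of 3.73 (SE 0.543, adjusted p = 0.00668). PTGER3 reached the count filter through the second group only, so its place among the genes that passed rests on that group, and it was not tested where at least 10 counts were asked of every library. SSTR3, a somatostatin receptor found on primary cilia, had 19, 16 and 21 counts against 45, 40 and 47 (1.24, adjusted p = 0.0178). S1PR3 was lower, at 285 ± 8.75 against 210 ± 2.47 CPM (−0.44, adjusted p = 0.0101). The soluble adenylyl cyclase ADCY10, which responds to bicarbonate and not to G proteins, had 3, 6 and 3 counts against 7, 3 and 2 and was not tested.

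Downstream, PKIA, an inhibitor peptide of protein kinase A, was the gene that passed among 8 tested kinase A subunits and inhibitors. It was lower, at 28.7 ± 2.31 against 19.4 ± 2.73 CPM (log2 difference −0.57, adjusted p = 0.0317). Among 10 tested effectors and CREB factors, RAPGEF3, which encodes the cAMP sensor Epac of most tissues outside the brain, was higher, with 34, 34 and 49 counts against 99, 116 and 88 (1.38, adjusted p = 0.00620). With the block 3 of the 10 were higher and 2 lower. Among 12 tested phosphodiesterases PDE3B, which breaks down cAMP and is known for its part in insulin action, was lower, with 61, 77 and 88 counts against 18, 33 and 24 (−1.57, adjusted p = 0.0101), and with the block 2 of the 12 were higher and 5 lower. Of 15 cAMP-responsive genes 0 passed with edgeR, DESeq2 or limma-voom, and 4 had an unadjusted edgeR p under 0.05. Their median log2 difference was −0.07, and with the block, where 22.5% of all tested genes passed, 5 of the 15 were higher and 4 lower.

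The number of pathway genes that passed depended on single libraries. Without replicates 1, 2 and 3 of the H295R group in turn it was 13, 6 and 3, where 4.75%, 1.63% and 1.28% of all tested genes passed. For replicates 1, 2 and 3 of the other group it was 6, 5 and 7, beside 2.53%, 1.45% and 1.5% of all tested genes. It was 24 without replicate 1 of both groups, beside 12% of all tested genes, and 18 with no filter on low counts, beside 3.59%. GNAT3 and RAPGEF3 passed under every alternative, and PTGER3 under every one in which it was tested. PTGER3 reached the count filter of the main fit through the libraries labelled H295R-PM-Ptc+ only, so its repeated calls are not read as support.

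**Figure D5:**
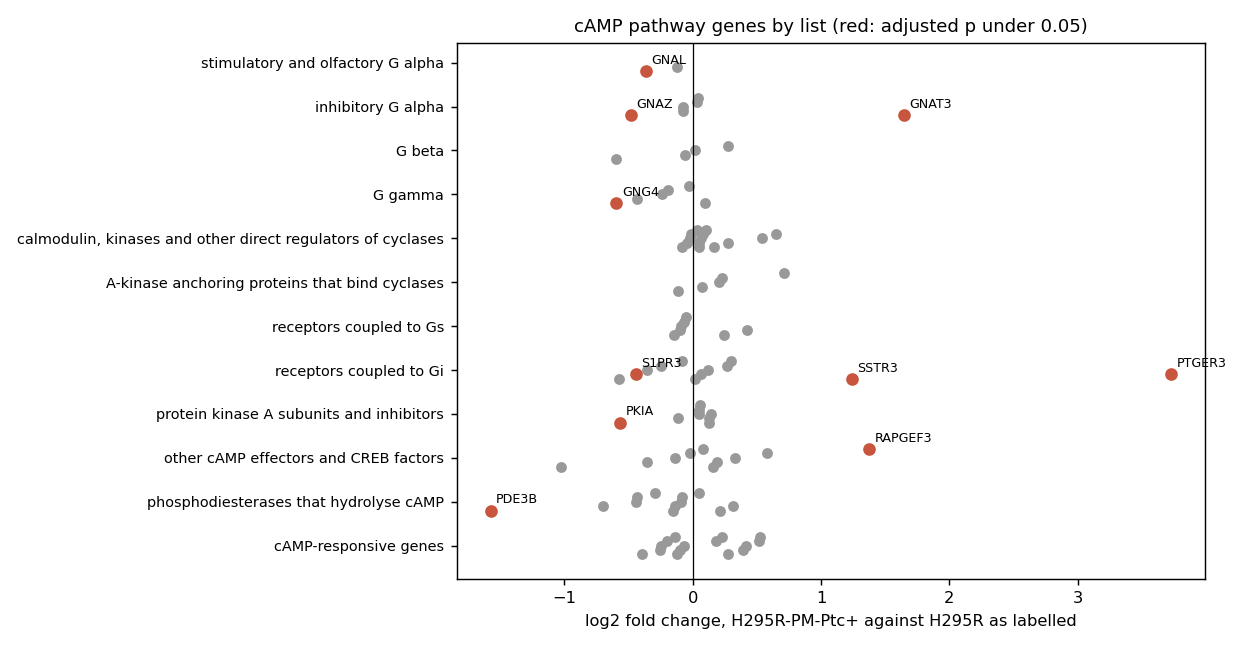
Fitted log2 difference (horizontal axis) of the 98 tested genes of the cAMP pathway by list, with the 10 genes of an adjusted p under 0.05 in red and named, and small vertical offsets that only separate the points. The red points lie on both sides of 0, from −1.57 for PDE3B to 3.73 for PTGER3, and the lists of cAMP-responsive genes and of receptors coupled to Gs hold none.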

How the data were processed

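Stranded libraries of 3 H295R and 3 H295R-PM-Ptc+ samples were sequenced as read pairs. The authors mapped these with STAR 2.4.0a on hg38, counted them per gene name and strand with featureCounts (Subread 1.5.0-p3 per the labels) on an Ensembl annotation, and deposited raw counts per gene, without normalization or a filter. The one row without a gene name held 0 counts (0% of each library) and was left out.

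After filterByExpr and TMM scaling, the groups were compared by the two-sided quasi-likelihood F-test of edgeR 4.0.16 (R 4.3.3; glmQLFit, glmQLFTest) without covariates, with Benjamini-Hochberg adjustment over all 16710 tested genes, and an adjusted p under 0.05 was taken as passing. CPM use TMM-scaled library sizes. Same-numbered libraries deviated together from their group means over the 16710 genes (r from 0.228 to 0.497, against −0.352 to 0.150 for other numbers), so the fit with the replicate number as a block is given beside the members, and as counts for each pathway list, where it changes a call. The alternatives were this block, DESeq2 1.42.0, limma-voom (limma 3.58.1), other size factors, no filter or at least 10 counts in every library, and each library left out. The tests were checked on simulated counts without a replicate effect, so this check does not cover the shared deviation of same-numbered libraries. Depth was 23264403 to 25813247 counts per library, and 95% intervals of shares (exact Clopper-Pearson) cover counting error only, since the sources name no molecular identifiers.

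All 9 members are named, with PTCH1, GNAS, MC2R, those genes of the pathway lists with an adjusted p under 0.05 (at most 4 a list, by size of the log2 difference), and the 5 genes most like ADCY2. Members and lists were chosen with earlier results of these data known. The labels and the methods of the study name different library kits and Subread versions, whose effect was not tested.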

Additional observations from a re-analysis of the deposited data

How the results depend on the processing

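ADCY2 passed under all 13 alternatives, with log2 differences from −3.05 to −2.72 and adjusted p from 1.37e-19 to 0.00385. The number of cyclases that passed was 1 on group alone, 3 with the replicate block (ADCY2, ADCY3 and ADCY7), 4 without replicate 1 of both groups (chosen after seeing the data), and 1 to 2 when single libraries were left out. Of all tested genes 3.73%, 22.5%, 12% and 1.28% to 4.75% passed in these fits, in the same order. The block changed no other call among the members. Besides ADCY2, the log2 difference of ADCY3 ran from 0.24 to 0.34 and that of ADCY7 from 0.38 to 0.78. ADCY8, which never passed, ran from 0.14 (without H295R replicate 3) to 1.12 (without H295R replicate 1). ADCY9, close to 0, turned negative with limma-voom (−0.0029) and with single libraries left out (range −0.11 to 0.12). The difference of the ADCY2 share was −0.84 points on length-scaled values and −1.95 to −1.54 with single libraries left out. With single libraries left out that of the ADCY9 share ran from −2.68 to −0.39 and that of the ADCY6 share from 0.36 to 1.60. That of the ADCY6 share turned to −0.37 and that of ADCY1 moved to −0.72 on length-scaled values. The summed level differed by 19.9 to 22.7 CPM under other scalings and by 13.5 to 29.3 CPM with single libraries left out. The pathway genes that passed numbered 10 with edgeR on group alone, 15 with DESeq2 and 11 with limma-voom. They numbered 42 with the block and 18 with no filter on low counts, where 3.59% of all tested genes passed. They numbered 24 without replicate 1 of both groups, and 3 to 13 with single libraries left out. The cause of these shifts was not tested. With 3 libraries a group, low genes such as ADCY5 and ADCY8, at 1 to 18 counts, are limited by counting error.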

Other observations

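Some genes that act on cyclases differed in every pair of libraries and passed with edgeR with the replicate block but not with edgeR on group alone. These genes are examples chosen after their values were seen, and other genes of the lists also passed with the block and not in the main fit. GNB1, a common G beta subunit, was at 208 ± 7.53 CPM under the H295R label and 251 ± 11.7 CPM under the other (SD, n = 3), with a log2 difference of 0.27 (edgeR adjusted p = 0.0878, with the block 2.76e-04). GNB4, a rarer subunit of the same kind, was at 10.5 ± 1.16 against 6.95 ± 1.28 CPM (−0.60, adjusted p = 0.0788, with the block 8.33e-04). AKAP12, a scaffold that holds protein kinase A at the membrane, was at 49.8, 78.1 and 84.4 CPM against 86.0, 134 and 129 CPM (0.71, adjusted p = 0.115, with the block 5.95e-08). In both groups replicate 1 of AKAP12 was the lowest library. With the block 22.5% of all tested genes passed.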
